A study of Homo sapiens with 4 samples.

Results

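Aminoacyl-tRNA synthetases were taken as the rows of the deposited RNA-seq count table whose symbol was an amino acid letter followed by ARS, with or without a 1 or 2, together with EPRS, FARSA, FARSB, AIMP1 and AIMP2. This gave 39 of the 15357 genes in the table, and all 39 were among the 11955 genes that passed the filter on low counts. They comprised 20 genes for cytosolic enzymes, 17 for mitochondrial enzymes, whose symbols end in 2, and 2 for the scaffold proteins AIMP1 and AIMP2. The measurements came from RKO, an established human colorectal cancer cell line, grown in Eagle's medium with 10% fetal bovine serum and stably infected with lentivirus. The vector group (n = 2) carried a control virus, named a vector in the sample titles and a control hairpin by the study, and the shCHD7_2 group (n = 2) carried the second short hairpin RNA against CHD7, an ATP-dependent chromatin remodeller. Whether the control virus held an empty vector or a hairpin is not known here. The comparison asked how expression changed on CHD7 knockdown. A single hairpin represented the knockdown, so an effect of losing CHD7 and an effect of this hairpin cannot be told apart. Nothing in the labels says that the 2 samples of a group were separate cultures, so every p-value measures the spread between these samples, which may be technical.

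Each synthetase activity joins 1 amino acid to the tRNAs whose anticodons read its codons, the step at which the genetic code is read into amino acids. Human cells keep separate sets of enzymes for the cytosol and for the mitochondrial matrix, both encoded in the nucleus. GARS and KARS are exceptions, since each gene supplies both compartments. Several cytosolic enzymes, among them EPRS, IARS, KARS, LARS, MARS, QARS and RARS, are held with AIMP1, AIMP2 and EEF1E1 in the multisynthetase complex. EPRS carries the glutamyl and prolyl activities in 1 chain. Genes for many cytosolic enzymes are known targets of ATF4, the transcription factor induced when amino acids run short, which acts at C/EBP-ATF response elements with the core TGATGNAA. The synthetase names used here are the older symbols of the deposited table, so WARS is the gene now listed as WARS1.

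The response element core was looked for in RefSeq promoter windows of assembly GRCh38.p14, which run from 250 bases before to 50 bases after a gene's start. A window was at hand for 32 of the 39 genes, and none for the others, among them LARS, YARS, VARS, VARS2 and AARS2. The core was present on either strand in 7 of 16 cytosolic genes (43.8%), 1 of 14 mitochondrial genes (7.14%) and 0 of 2 AIMP genes, compared with 571 of 15843 protein-coding genes (3.60%). The stretches that hold it are shown so that the matches, found more often in the cytosolic than in the mitochondrial windows searched, can be read letter by letter. Each is 30 bases, read 5′ to 3′ on the strand that carries the match, and capitals mark the matched 8 bases. The ASNS promoter, from the amino acid response gene for asparagine synthetase, is added for comparison.
GARS (chr7:30594834-30594863, minus strand): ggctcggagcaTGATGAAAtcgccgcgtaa
IARS (chr9:92293692-92293721, plus strand): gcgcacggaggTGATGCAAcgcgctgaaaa
MARS (chr12:57488053-57488082, minus strand): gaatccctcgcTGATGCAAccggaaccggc
NARS (chr18:57621804-57621833, minus strand): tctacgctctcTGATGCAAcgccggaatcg
TARS (chr5:33440956-33440985, minus strand): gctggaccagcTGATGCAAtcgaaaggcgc
CARS (chr11:3057407-3057436, plus strand): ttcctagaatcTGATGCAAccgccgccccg
AARS (chr16:70289675-70289704, plus strand): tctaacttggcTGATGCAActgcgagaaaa
YARS2 (chr12:32756076-32756105, minus strand): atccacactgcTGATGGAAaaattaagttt
ASNS (chr7:97872458-97872487, minus strand): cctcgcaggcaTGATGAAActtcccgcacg
Apart from that of AARS, the cytosolic matches began from 33 bases before to 14 bases after the start site. The AARS match began 187 bases before it. A match of 8 letters is a description of the sequence and does not show that a factor binds there.

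CHD7 itself was lower in both knockdown samples. It had 85.4 and 91.0 CPM, the read count relative to library size after TMM scaling, in the vector samples, compared with 55.5 and 50.1 CPM in the shCHD7_2 samples, a log2 fold change of -0.74 (SE 0.088, adjusted p = 4.2e-06, edgeR quasi-likelihood test). The libraries held 15734679 to 16068650 estimated reads in total, and each synthetase gene had at least 171 reads in every sample. The 2 samples of a group differed by more than counting noise, with chi-square values per gene of 3.94 in the vector group and 6.05 in the shCHD7_2 group, so neither pair was treated as repeated deposits of 1 library. EPCAM, KRT8, KRT18 and CDX2, 4 of the 7 epithelial markers in the table, were present at 161 or more reads, while CDH1, KRT20 and LGALS4 were at 0 or 1 read. Each of the fibroblast, leukocyte and endothelial marker lists summed to at most 0.752 CPM in any sample. In bulk samples such as these, fewer cells of a type and less RNA per cell cannot be told apart. Genes were called when the adjusted p was under 0.05 and the change was 1.5-fold or more, and of 344 such genes, 180 were higher and 164 lower in shCHD7_2.

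Levels were compared between genes on the FPKM scale, which divides by transcript length. The cytosolic enzymes had a median of 103.7 FPKM over the 4 samples and the mitochondrial enzymes 15.1 FPKM, a ratio of 6.85. The most abundant was GARS, the glycyl enzyme of both compartments, at 269 and 281 FPKM in the vector samples and 252 and 242 FPKM in the shCHD7_2 samples. The next by level were the isoleucyl enzyme IARS, at 237 FPKM over the 4 samples, and the seryl enzyme SARS, at 227 FPKM. The least abundant was PARS2, the mitochondrial prolyl enzyme, at 6.08, 5.97, 6.43 and 7.88 FPKM in vector 1, vector 2, shCHD7_2 1 and shCHD7_2 2. The 2 sets hardly mixed in this order. Only IARS2 (75.0 FPKM) and CARS2 (54.3 FPKM) among the mitochondrial enzymes lay above the lowest cytosolic enzyme, VARS (45.5 FPKM). AIMP1 and AIMP2 sat between the sets at 29.2 and 30.2 FPKM, with ranges over the samples that overlapped each other.

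**Figure D1:**
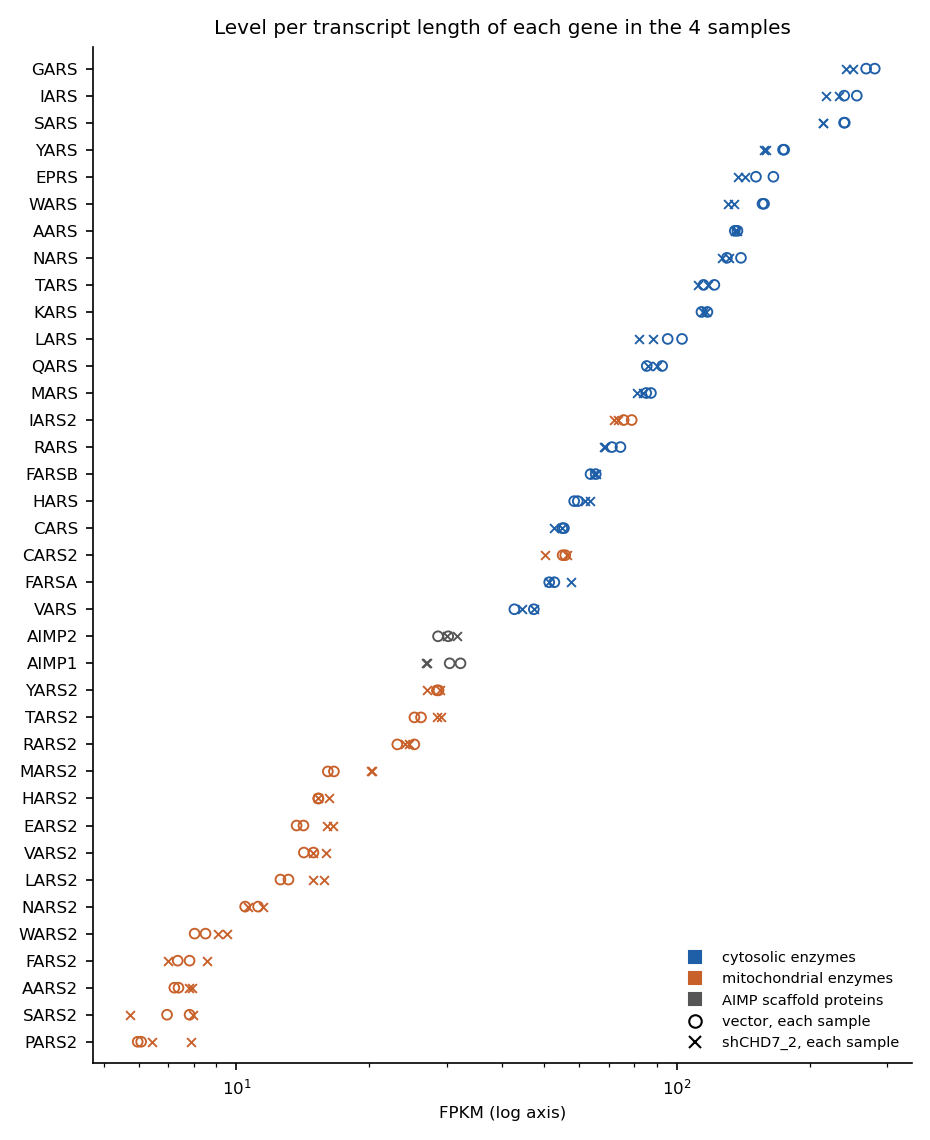
FPKM of 37 of the 39 genes in each sample on a log axis, with genes ordered by their mean over the 4 samples, circles for vector, crosses for shCHD7_2 and colours for the cytosolic, mitochondrial and AIMP genes. The cytosolic enzymes fill the upper part of the order down to VARS at 45.5 FPKM, and the lowest gene is PARS2 at 6.59 FPKM.

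None of the 39 genes met the fold threshold of 1.5 together with the adjusted p, against a background of 2.88% of all genes tested. This count of 0 was obtained with edgeR and with DESeq2. At the adjusted p alone 3 genes fell, all cytosolic, among them WARS and LARS. That is 7.69% of the 39, close to the 6.54% of all genes that fell. No synthetase gene rose, where the background was 4.94%. The number that fell was 1 without vector replicate 1, 0 without vector replicate 2, 6 without shCHD7_2 replicate 1 and 2 without shCHD7_2 replicate 2. At an unadjusted p under 0.05 the number was 12 of 39 (30.8%), with 9 lower and 3 higher, beside 25.4% of all genes in either direction. No 95% interval of a log2 fold change reached a 1.5-fold change.

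The medians of the cytosolic and mitochondrial sets lay on different sides of 0. The median log2 fold change of the cytosolic enzymes was -0.11, with 18 of 20 below 0 (90%), compared with a median of 0.00056 and 49.9% below 0 for all genes tested. That of the mitochondrial enzymes was 0.05, with 11 of 17 above 0 and 6 below. This is close to the mitochondrial median log2 ratio between samples of 1 group, 0.05 for vector and 0.04 for shCHD7_2. The CPM values of the groups did not overlap and were lower in shCHD7_2 for 15 of the 20 cytosolic enzymes (75.0%), beside 27.3% of all genes tested. They did not overlap and were higher in shCHD7_2 for 8 of the 17 mitochondrial enzymes (47.1%), beside 26.4% of all genes. For 4 of the 17 (23.5%, beside 27.3% of all genes) they were lower without overlap. On the FPKM scale 11 of the 20 cytosolic enzymes (55.0%) had lower values in shCHD7_2 without overlap, beside 20.7% of all genes tested. On that scale 8 of the 17 mitochondrial enzymes had higher values without overlap, beside 33.8% of all genes. Lower values without overlap were seen for 1 of the 17 (5.88%, beside 20.7%). These medians and counts are descriptions of the sets, with no test attached.

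**Figure D2:**
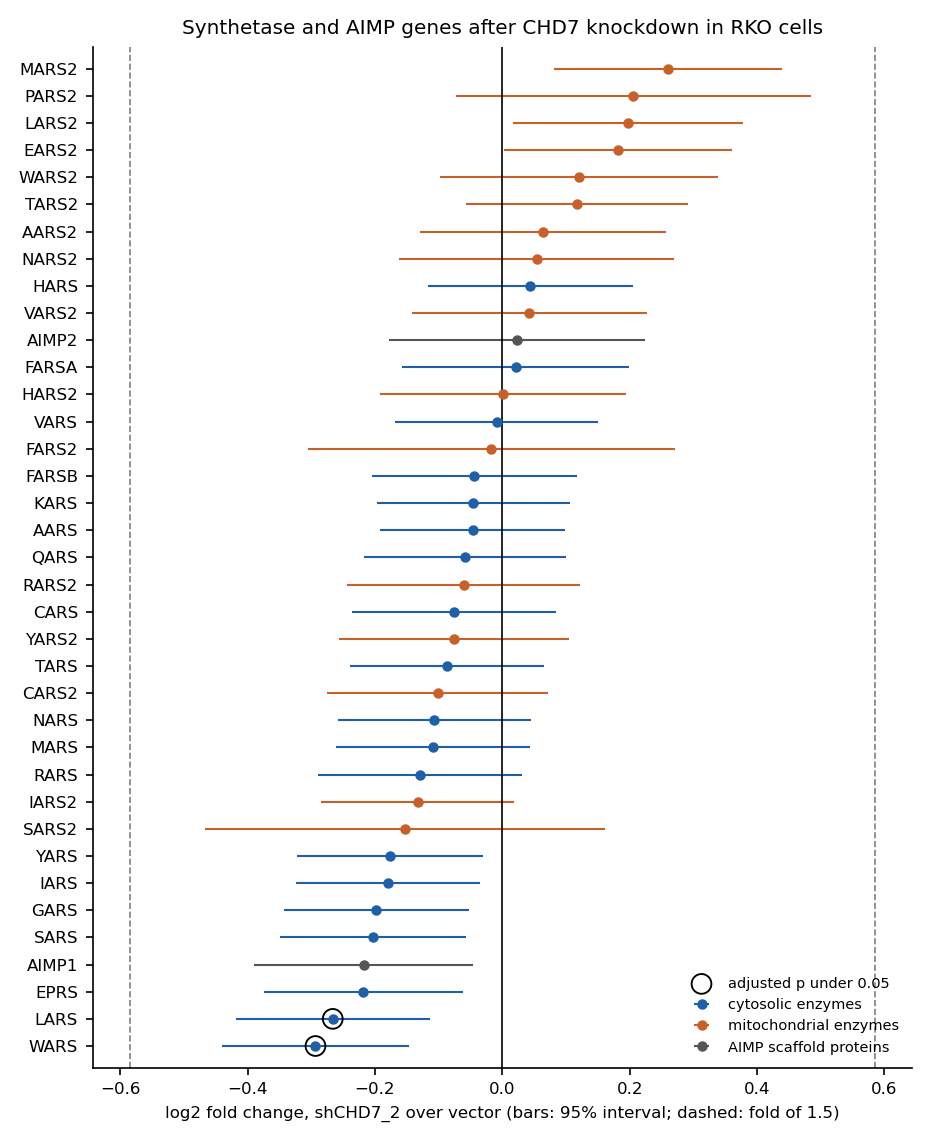
Log2 fold change of shCHD7_2 over vector for 37 of the 39 genes, with the 95% interval as a bar, coloured by set and ordered by value. Circles mark WARS and LARS, the genes shown that passed the adjusted p, and the dashed lines at a fold of 1.5 lie outside every interval.

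WARS encodes the tryptophanyl enzyme, a free cytosolic protein known to be induced by interferon. It lies at chr14:100333788-100376805 on the minus strand (GRCh38, GENCODE 29). It had 396 and 402 CPM in the vector samples and 329 and 322 CPM in the shCHD7_2 samples, without overlap. The log2 fold change was -0.29 (SE 0.071, adjusted p = 0.0081). The adjusted p was 0.090 without vector replicate 1 and 0.17 without vector replicate 2, at log2 fold changes of -0.31 and -0.28. Its exons overlap those of WDR25 on the other strand, and whether counting used the strand is not given in the sources used here.

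LARS encodes the leucyl enzyme, known also as a leucine sensor upstream of mTORC1. It lies at chr5:146113038-146182660 on the minus strand. It had 456 and 493 CPM in the vector samples and 409 and 381 CPM in the shCHD7_2 samples. The groups did not overlap, although the spread within each was wider than for WARS. The log2 fold change was -0.27 (SE 0.074, adjusted p = 0.019). Whether LARS passed the adjusted p depended on which sample was left out. Its log2 fold change was -0.32 without vector replicate 1 and -0.21 without vector replicate 2. It was -0.32 without shCHD7_2 replicate 1 and -0.22 without shCHD7_2 replicate 2.

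The cytosolic enzymes EPRS, SARS, GARS, IARS and YARS followed LARS in size, with log2 fold changes from -0.22 to -0.18. None passed the adjusted p, with values from 0.064 for EPRS to 0.12 for YARS, and in each the shCHD7_2 samples lay below both vector samples. The bifunctional EPRS, for example, had 639.7 and 723 CPM in the vector samples and 608 and 563 CPM in the knockdown samples. At the other end of the set, HARS, the histidyl enzyme, had 127 and 129 CPM in the vector samples and 130 and 135 CPM in the knockdown samples. It was the only cytosolic enzyme with higher values in shCHD7_2 without overlap, at a log2 fold change of 0.04 (SE 0.078, adjusted p = 0.77). The genes EPRS, SARS, GARS, IARS, YARS and HARS were singled out after their values were seen.

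By their place in the cell, the 8 cytosolic enzymes of the multisynthetase complex were all below 0, at a median log2 fold change of -0.15. For 7 of these 8 the groups did not overlap and shCHD7_2 was lower on the CPM scale (87.5%, beside 27.3% of all genes), the exception being QARS. On the FPKM scale KARS overlapped too, which left 6 of 8 (75.0%, beside 20.7%). The 12 cytosolic enzymes outside the complex had a median of -0.08, with 10 below 0. Of these 12, shCHD7_2 was lower without overlap for 8 on the CPM scale (66.7%) and 5 on the FPKM scale (41.7%). It was higher without overlap for 1 on each scale. By catalytic fold, the 9 class I cytosolic enzymes had a median of -0.13 with all 9 below 0, and the 10 of class II had a median of -0.07 with 8 below 0. EPRS, which has activities of both classes, was left out of the comparison by fold. The difference between these subsets was not tested.

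AIMP1 and AIMP2, the scaffold proteins of the complex, gave different values. AIMP1, known also as the precursor of the cytokine EMAPII, had 83.7 and 86.1 CPM in the vector samples and 72.3 and 73.8 CPM in the shCHD7_2 samples. These did not overlap, at a log2 fold change of -0.22 (SE 0.083, adjusted p = 0.096). AIMP2 had 31.6 and 30.2 CPM in the vector samples and 30.4 and 32.4 CPM in the shCHD7_2 samples, which overlapped, at 0.02 (SE 0.097, adjusted p = 0.91). The counts of AIMP1 and AIMP2 were not all whole numbers, and each gene has exons that overlap a gene on the other strand, TBCK and EIF2AK1 respectively.

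Among the mitochondrial enzymes the widest fold changes were upward and none passed the adjusted p. MARS2, the mitochondrial methionyl enzyme, had 47.9 and 49.5 CPM in the vector samples and 58.2 and 58.4 CPM in the shCHD7_2 samples. This gave a log2 fold change of 0.26 (SE 0.087, adjusted p = 0.054). The knockdown samples were well above the vector samples and close to each other. LARS2, the mitochondrial leucyl enzyme, had 50.4 and 52.6 CPM in the vector samples and 60.6 and 57.7 CPM in the shCHD7_2 samples, at 0.20 (SE 0.087, adjusted p = 0.15). PARS2 had 13.7 and 13.5 CPM in the vector samples and 14 and 17.4 CPM in the shCHD7_2 samples, at 0.21 (SE 0.13, adjusted p = 0.36). The PARS2 value came mostly from shCHD7_2 2, and its log2 fold change without that sample was 0.04. The lowest value of the set was that of SARS2, at -0.15 (SE 0.15, adjusted p = 0.58), whose exons overlap those of MRPS12 on the other strand.

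On the TMM-scaled CPM scale, the cytosolic enzymes together took 6835 and 7124 CPM in the vector samples and 6321 and 6200 CPM in the shCHD7_2 samples. The mitochondrial enzymes together took 959 and 979 CPM in the vector samples and 955 and 990 CPM in the knockdown samples. On this scale the cytosolic sums were thus lower in both knockdown samples, and the mitochondrial sums overlapped. Summed FPKM of the cytosolic enzymes was also lower, at 2409 and 2475 in the vector samples and 2288 and 2250 in the shCHD7_2 samples. The mitochondrial FPKM sums were 348.16 and 352.25 in the vector samples and 352.78 and 367.24 in the shCHD7_2 samples. They were higher in shCHD7_2 without overlap, but 352.25 and 352.78 were nearly equal. On the FPKM scale more of all genes tested were higher without overlap (33.8%) than lower (20.7%). The median log2 fold change of all genes with limma on log2(FPKM + 1) was 0.04. The ratio of the 2 CPM sums was 7.13 and 7.28 in the vector samples and 6.62 and 6.26 in the shCHD7_2 samples. The smallest two-sided p of an exact permutation test with 2 samples against 2 is 0.333, and none is given for these values.

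The shift of the cytosolic set was seen in each pairing of a knockdown with a vector sample. The median log2 ratio over the 20 cytosolic enzymes ranged from -0.16 to -0.09 over the 4 pairings, compared with 0.04 between the vector samples and -0.01 between the shCHD7_2 samples. The median over the 17 mitochondrial enzymes ranged from -0.00016 to 0.11 over the same pairings. Between samples of 1 group the mitochondrial median was 0.05 in the vector group and 0.04 in the shCHD7_2 group. The cytosolic medians of the 4 pairings all lay farther from 0 than those within groups, whereas the mitochondrial ones lay on either side of them. The 4 pairings share samples and are not independent.

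For 14 amino acids the 39 genes include 1 for the cytosolic enzyme and another for the mitochondrial enzyme, so that the 2 can be set side by side. TARSL2, a further threonyl synthetase gene, is outside the 39 and was counted with the synthetase partners. Its log2 fold change was -0.17 (SE 0.12, adjusted p = 0.41, edgeR). The mitochondrial gene had the higher log2 fold change in 12 of the 14 pairs, the exceptions being histidine and cysteine. The ratio of cytosolic to mitochondrial CPM was lower in both knockdown samples than in both vector samples for 8 pairs and higher for 1, that of HARS and HARS2. How often ratios of other gene pairs separate in this way was not worked out, so these counts of pairs have no background beside them. The widest difference was for leucine, where the ratio of LARS to LARS2 was 9.04 and 9.37 in the vector samples and 6.75 and 6.60 in the shCHD7_2 samples. For tryptophan the ratio of WARS to WARS2 was 18.4 and 17.5 against 13.3 and 13.6. In leucine and tryptophan the cytosolic gene was among those that fell and the mitochondrial gene had a log2 fold change above 0. For methionine the ratio of MARS to MARS2 was 5.09 and 4.82 in the vector samples and 3.76 and 3.91 in the knockdown samples. The differences between the log2 fold changes of the partners were 0.46 for leucine, 0.41 for tryptophan and 0.37 for methionine. The exons of MARS overlap those of ARHGAP9 and DDIT3, itself a gene of the amino acid response, on the other strand.

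HARS and HARS2 are neighbours that face away from each other. Their annotated exons overlap on opposite strands, and those of HARS also overlap WDR55. Strand use in counting is not known here, so reads may be shared between these genes, which limits the HARS to HARS2 ratio. The RefSeq start sites of HARS and HARS2 are 85 bases apart and their promoter windows share 184 bases (chr5:140691321-140691504). Their log2 fold changes were 0.04 and 0.0015, and neither passed the adjusted p. HARS and HARS2 had counts that were not whole numbers, as had 7 of the 39 genes in all, which estimated counts can be where reads are divided among genes. Of the 39 genes, 12 have exons that overlap those of a gene of the table on the opposite strand.

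The log2 fold changes were also set beside the promoter search. Among the 7 cytosolic genes with the response element core the median log2 fold change was -0.11, and 7 of 7 were below 0 and 0 past the adjusted p. The 9 cytosolic genes with a window but without the core had a median of -0.06, with 7 below 0 and 1, WARS, past the adjusted p. LARS had no window to search. No difference between the subsets was tested.

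Genes of the amino acid response, the pathway by which ATF4 drives many cytosolic synthetases, asparagine synthesis and serine synthesis, were read from a list of 34 tested genes. Of these 6 fell (17.6%), and 1 rose (2.94%), beside 6.54% and 4.94% of all genes, and 29 of the 34 had a log2 fold change below 0, with a median of -0.11. The number that fell was 3 with either vector sample left out, 8 with either shCHD7_2 sample left out, 2 without a filter on low counts and 1 with limma on log2(FPKM + 1) without a filter. NUPR1, a small stress-induced chromatin protein, had 8.89 and 8.61 CPM in the vector samples and 1.62 and 1.88 CPM in the shCHD7_2 samples, a log2 fold change of -2.32 (SE 0.21, adjusted p = 5.1e-08). It was the only gene of the list to pass the fold threshold. ASNS, asparagine synthetase, had 728 and 748 CPM in the vector samples and 537 and 537 CPM in the shCHD7_2 samples, at -0.46 (SE 0.069, adjusted p = 8.4e-05). PHGDH, the first enzyme of serine synthesis, had 209.9 and 207 CPM in the vector samples and 151 and 163 CPM in the shCHD7_2 samples, at -0.41 (SE 0.076, adjusted p = 0.00093). CEBPB, a transcription factor that pairs with ATF4, moved the other way, with 77.9 and 71.6 CPM in the vector samples and 99.5 and 112 CPM in the shCHD7_2 samples, at 0.50 (SE 0.087, adjusted p = 0.00047). ATF4 itself had 703 and 671 CPM in the vector samples and 552 and 585 CPM in the shCHD7_2 samples, and its mRNA fell by 0.27 on the log2 scale (SE 0.071, adjusted p = 0.013). The other genes that fell were PPP1R15A, a phosphatase subunit that reverses the stress response, and DDIT4, an inhibitor of mTORC1. ATF4, PPP1R15A and DDIT4 were named after their values were seen.

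**Figure D3:**
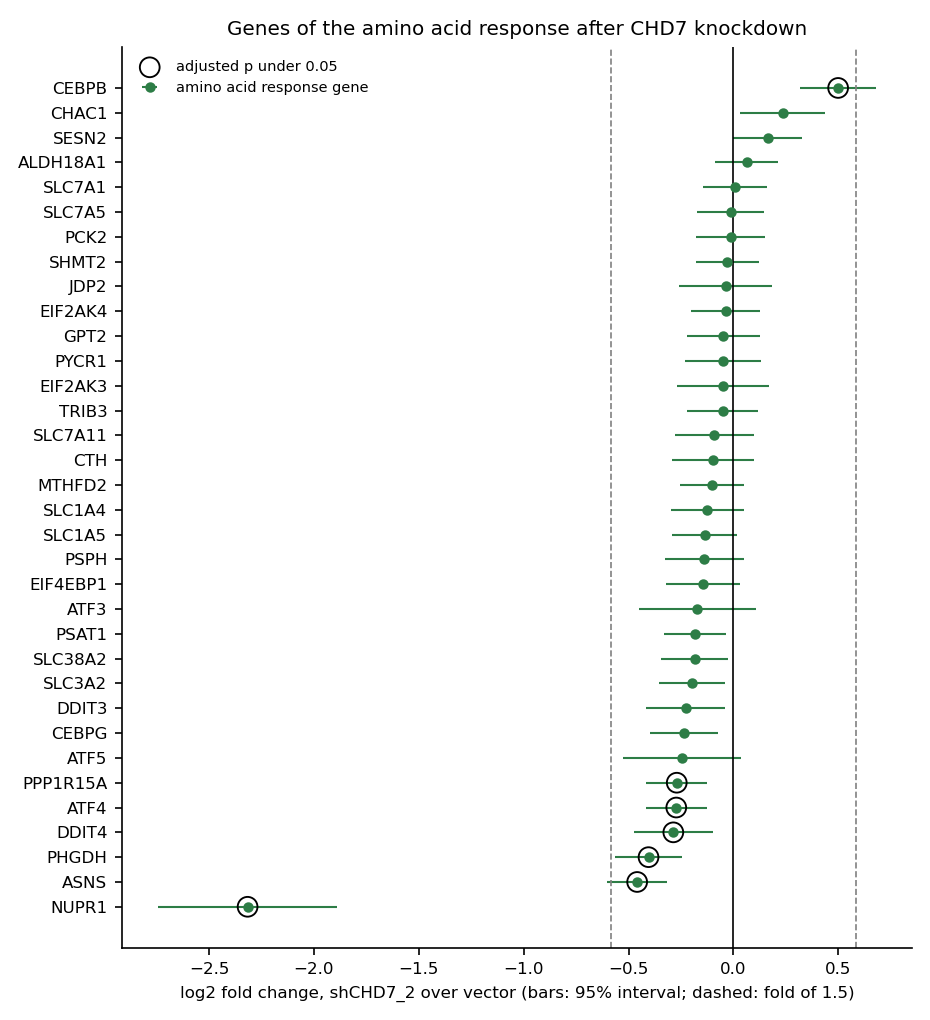
Log2 fold change of shCHD7_2 over vector with its 95% interval for the 34 tested genes of the amino acid response list, ordered by value, with circles for an adjusted p under 0.05 and dashed lines at a fold of 1.5. NUPR1 stands apart at -2.32, ASNS and PHGDH follow at -0.46 and -0.41, and CEBPB is highest at 0.50.

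Genes for the other steps around tRNA charging were read from further lists. At the adjusted p, 6.54% of all genes tested fell and 4.94% rose. Of 13 synthetase partners and proofreading factors, including the complex member EEF1E1 and the mitochondrial amidotransferase subunits GATB, GATC and QRSL1, 0 passed the adjusted p, and the median log2 fold change was -0.07 with 8 below 0. Of the 4 tested genes of elongation factor 1, which takes charged tRNA to the ribosome, 0 passed, and all 4 were below 0 with a median of -0.12. In lists of 13 and 4 genes, a count of 0 cannot be told apart from the shares of all genes. Of 41 genes of tRNA maturation and export, 3 fell and 3 rose (7.32% each), near the 6.54% and 4.94% of all genes, with a median of 0.04. Without vector replicate 2 these numbers were 1 and 0, without vector replicate 1 they were 2 and 1, without shCHD7_2 replicate 1 they were 5 and 4, and without shCHD7_2 replicate 2 they were 2 and 1. The tRNA ligase complex helicase DDX1 had 159 and 169 CPM in the vector samples and 107 and 102 CPM in the shCHD7_2 samples, a log2 fold change of -0.65 (SE 0.079, adjusted p = 6.2e-06), and was the only gene of these lists past the fold threshold. ELAC2, which trims tRNA 3′ ends, and POP5, a subunit of RNase P, rose by 0.32 and 0.46 on the log2 scale (adjusted p = 0.0079 and 0.012). TRNT1, which adds the terminal CCA, had a log2 fold change of -0.37 (adjusted p = 0.013). TSEN15, a subunit of the tRNA splicing endonuclease, also fell and was named after its values were seen. Of 24 genes of RNA polymerase III and its factors, which transcribe tRNA genes, 0 fell and 1 rose (4.17%, beside 4.94% of all genes), GTF3C1 at 0.27 (SE 0.076, adjusted p = 0.021). GTF3C1 is the largest subunit of the tRNA gene factor TFIIIC. The number that rose was 0 with either vector sample left out and without a filter on low counts, 2 without shCHD7_2 replicate 1 and 3 with limma on log2(FPKM + 1). The number that fell was 1 with either shCHD7_2 sample left out.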

How the data were processed

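RNA from 4 RKO samples (2 vector, 2 shCHD7_2) was captured with oligo-dT beads by the authors. The authors deposited estimated counts per gene (expected counts that need not be whole, 13.6% to 14.7% of them not whole per sample) and FPKM values. The submitters' processing notes name hg38, Bowtie2, RSEM and DESeq2; versions, gene annotation and strand setting are not given in the sources used here. Groups came from the deposited sample titles. Counts were rounded and tested with edgeR 4.0.16 (filterByExpr, TMM, quasi-likelihood) under R 4.3.3, with Benjamini-Hochberg adjustment over all 11955 genes tested. Calls needed an adjusted p under 0.05 together with a 1.5-fold change, the thresholds of the study. The scripts were tested on simulated data. DESeq2 1.42.0 on the same counts and limma 3.58.1 on log2(FPKM + 1) for genes with a mean of at least 1 FPKM were alternatives, with other scalings, filters, a replicate block and leaving out each sample. The biological coefficient of variation was 0.058. RefSeq windows and GENCODE 29 supplied promoters and positions.

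The genes and lists were chosen with earlier results of these data known. Named by rule, with every sample's value, were the members past the adjusted p and the 3 largest absolute fold changes among cytosolic, mitochondrial and AIMP genes. The most and least abundant members were named too, and from each pathway list up to 4 genes past the adjusted p, those of smallest p. Cytosolic and mitochondrial enzymes of 1 amino acid could be named side by side. Some genes are counted within their sets and not reported here by name. Intervals cover the spread between these samples alone.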

Additional observations from a re-analysis of the deposited data

How the results depend on the processing

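The cytosolic median stayed below 0 in each of the 15 alternatives tried, from -0.15 to -0.06, with 15 to 19 of the 20 enzymes below 0 in the 14 that kept them all. The other, added after seeing the data, left out GARS and KARS and gave -0.11. It was -0.064 with library totals, -0.063 with limma on log2(FPKM + 1), with or without a filter, and on log2(FPKM + 0.1), and -0.15 to -0.10 when 1 sample was left out. The mitochondrial median ranged from -0.0022, without shCHD7_2 replicate 2, to 0.085 when 1 sample was left out, and from 0.05 to 0.10 otherwise, with 8 to 13 of the 17 above 0. The median of all genes was itself 0.04 with library totals and with limma at either pseudocount, and 0.02 with limma without a filter. The number of synthetase genes that fell was less stable than the direction. It was 0 without a filter on low counts and with limma without a filter, and 0 to 6 when 1 sample was left out. Without vector replicate 2 it was 0, without vector replicate 1 it was 1, and without shCHD7_2 replicate 1 it was 6. LARS no longer passed the adjusted p with limma, and its log2 fold change was -0.22 without shCHD7_2 replicate 2. MARS2 rose, as 1 gene, with library totals, with a CPM above 1 in all samples, and with limma at either pseudocount. Without a fold threshold 3 synthetase genes and 1373 genes in all were called. The number called over the table was 219 with DESeq2, 141 without a filter, 172 with limma on log2(FPKM + 1) and 23 with limma without a filter, and 308 to 380 when 1 sample was left out. CHD7 had a log2 fold change of -0.51 (adjusted p = 0.10) with limma without a filter and passed in the 13 other alternatives. AIMP2 changed sign without vector replicate 2 (-0.012) and without shCHD7_2 replicate 2 (-0.024), and ranged from -0.024 to 0.064 when 1 sample was left out. Of the tRNA maturation genes, 6 rose with library totals and with limma at either pseudocount and 0 without a filter. The cause of these changes was not tested. With the replicate number as a replicate block 1 synthetase gene, 3 genes of the amino acid response and 1 of tRNA maturation fell, and 0 of RNA polymerase III rose. The deviations of same-numbered samples had a correlation of -0.18 over 11955 genes. With 2 samples per group, same-numbered and crossed samples give correlations of equal size and opposite sign. Whether any samples were paired cannot be told from this value. With the crossed pairing, added after seeing the data, 11 synthetase genes fell, 3 rose and 423 genes were called over the table. The widest SE, 0.15, was that of SARS2, which had the fewest reads (171).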
